A study of Mus musculus with 12 samples.

Results

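Spinal interneuron transcription factors were followed in the whole spinal cord of 1-week-old mice. The set holds 37 genes of the 38924 in each library's file, chosen by name as factors that mark dorsal and ventral classes of spinal neurons, and each name matched 1 gene. RNA was measured in 12 mice on a B6J;CAST background, 1 library per mouse. Of these, 6 carried P278KY over wt at Gars, which encodes glycyl-tRNA synthetase, and 6 were wt, with 3 mice labelled female and 3 labelled male in each genotype. The series title places the age before disease onset. Libraries are named by labelled sex, genotype and mouse number, and the mice are separate animals.

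Spinal interneurons arise from progenitor domains stacked along the dorsal to ventral axis of the embryonic neural tube. The dorsal classes dI1 to dI6 supply the sensory circuits of the dorsal horn and relay neurons, and the ventral classes V0 to V3 supply the circuits for movement. Each class is set up by a code of homeodomain, bHLH, GATA, Sox and zinc finger factors, some of which are shut down after birth while others stay on in mature neurons. In bulk tissue, fewer cells of a class and less RNA of a factor per cell cannot be told apart.

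Library totals ran from 27713981 to 43219891 expected counts, with 22001 to 23173 genes above 0. Sex marks went against the label in 2 libraries, both wt. In the library labelled female wt 14, Xist stood at 0.12 TPM (RSEM's level of a gene, scaled by its length and by the library) and the Y-linked Ddx3y at 18.1 TPM, and in the library labelled male wt 19 Xist stood at 127 TPM and Ddx3y at 0.01 TPM. Gars itself stood between 87.9 and 112 TPM in wt and between 92.6 and 105 TPM in P278KY cord. A gene total does not show which allele was read. The 6 pan-neuronal genes summed to between 1546 and 2035 TPM in wt and 1549 and 1952 TPM in P278KY. Of markers of brain regions above the cord, Otx2 was at 0 in all 12 libraries, and Neurod6 lay between 8.98 and 13.5 TPM. Skeletal muscle genes summed to between 14.4 and 1399 TPM in wt and between 120 and 3617 TPM in P278KY. The fitted difference was positive for 10 of 10, beside 46.9% of all genes. By edgeR's genotype test 7 of them had an unadjusted p under 0.05, beside 4.09% of all genes, and 0 passed after adjustment. The part of muscle RNA in the results below was not tested.

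RefSeq promoter sequence was matched for 27 of the 37 members (table build GRCm38.p6). Lbx1, Lhx5, Gbx1, Foxp2, Bhlhe22, Maf, Mafa, Wt1, Nfib and Onecut2 had no entry. Shown are the 250 bases before the annotated start for 4 members that mark the pattern between libraries described further on: Pax2 and Lmx1b, which varied with Lbx1, Nkx2-2, which varied against it, and Tal1, which leaned the same way as Nkx2-2 at the edge of the threshold. The Pax2 window is chr19:44746351-44746600 on the plus strand, at the most upstream of 3 listed starts. The Pax2 gene of GENCODE M21 starts well downstream, at chr19:44756045, so this window is not next to that start. The Lmx1b window is chr2:33641099-33641348 on the minus strand and the Nkx2-2 window chr2:147186403-147186652 on the minus strand. In GENCODE M21 the Nkx2-2 gene starts further upstream, so this window lies inside it. The Tal1 window is chr4:115056176-115056425 on the plus strand, and its capitals mark TTATC, the reverse strand of the GATA-type motif GATAA. Each reads 5′ to 3′ on the gene's strand.
Pax2: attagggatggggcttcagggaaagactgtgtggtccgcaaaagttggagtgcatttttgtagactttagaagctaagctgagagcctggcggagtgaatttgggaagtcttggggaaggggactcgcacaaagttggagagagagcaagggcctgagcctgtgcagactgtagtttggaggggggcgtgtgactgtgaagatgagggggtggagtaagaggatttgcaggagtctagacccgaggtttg
Lmx1b: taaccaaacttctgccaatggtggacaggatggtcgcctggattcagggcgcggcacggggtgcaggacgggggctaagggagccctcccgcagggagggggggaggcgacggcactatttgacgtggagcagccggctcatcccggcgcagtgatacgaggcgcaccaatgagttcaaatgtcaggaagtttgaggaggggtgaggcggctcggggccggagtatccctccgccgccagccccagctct
Nkx2-2: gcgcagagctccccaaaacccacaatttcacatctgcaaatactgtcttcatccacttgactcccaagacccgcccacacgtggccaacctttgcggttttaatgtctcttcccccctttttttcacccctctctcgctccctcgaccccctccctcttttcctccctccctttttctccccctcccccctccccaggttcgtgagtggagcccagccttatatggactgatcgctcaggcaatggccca
Tal1: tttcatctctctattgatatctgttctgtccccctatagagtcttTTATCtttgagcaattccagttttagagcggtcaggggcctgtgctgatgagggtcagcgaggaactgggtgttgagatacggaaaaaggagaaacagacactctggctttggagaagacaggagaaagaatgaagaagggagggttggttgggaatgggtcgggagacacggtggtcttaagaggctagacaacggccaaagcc

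Promoters of the members were richer in CpG than most, though not those of all 4 genes shown. The 27 matched members held a median of 17 CpG dinucleotides in 250 bases, against 6 over 27018 genes, and a median GC content of 64.8% against 52.0%. Pax2, with 5 CpG, Tal1, with 6, and Nkx2-2, with 8, lay below the members' median, and Lmx1b held 19. Searched on both strands were 3 motifs, none of which contains another. The homeodomain core TAATTA was in 0 of 27 windows and in 4.91% of all promoters, the E-box CAGCTG in 3 (Barhl1, Pou4f1 and Prdm8) and in 12.7%, and GATAA in 4 (Lhx9, Pax8, Tal1 and Tlx3) and in 23.0%. A match is a description of letters in this window only.

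The members spanned 3 levels of abundance. By mean TPM over 12 libraries, 10 stood above 10, 17 between 1 and 10 and 10 under 1, with a median of 4.55 TPM. The highest was Nfib at 44.1 ± 3.19 TPM (SD, n = 12), followed by Satb1 at 32.8 ± 2.35 and Nkx2-2 at 29.7 ± 5.60. The lowest was Ptf1a at 0.0333 TPM, with 0 to 2 counts per library and a 0 in 4 libraries. Ptf1a, which directs dorsal progenitors to an inhibitory fate, was the only member that did not pass the filter on low counts, so 36 of 37 were tested.

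**Figure D1:**
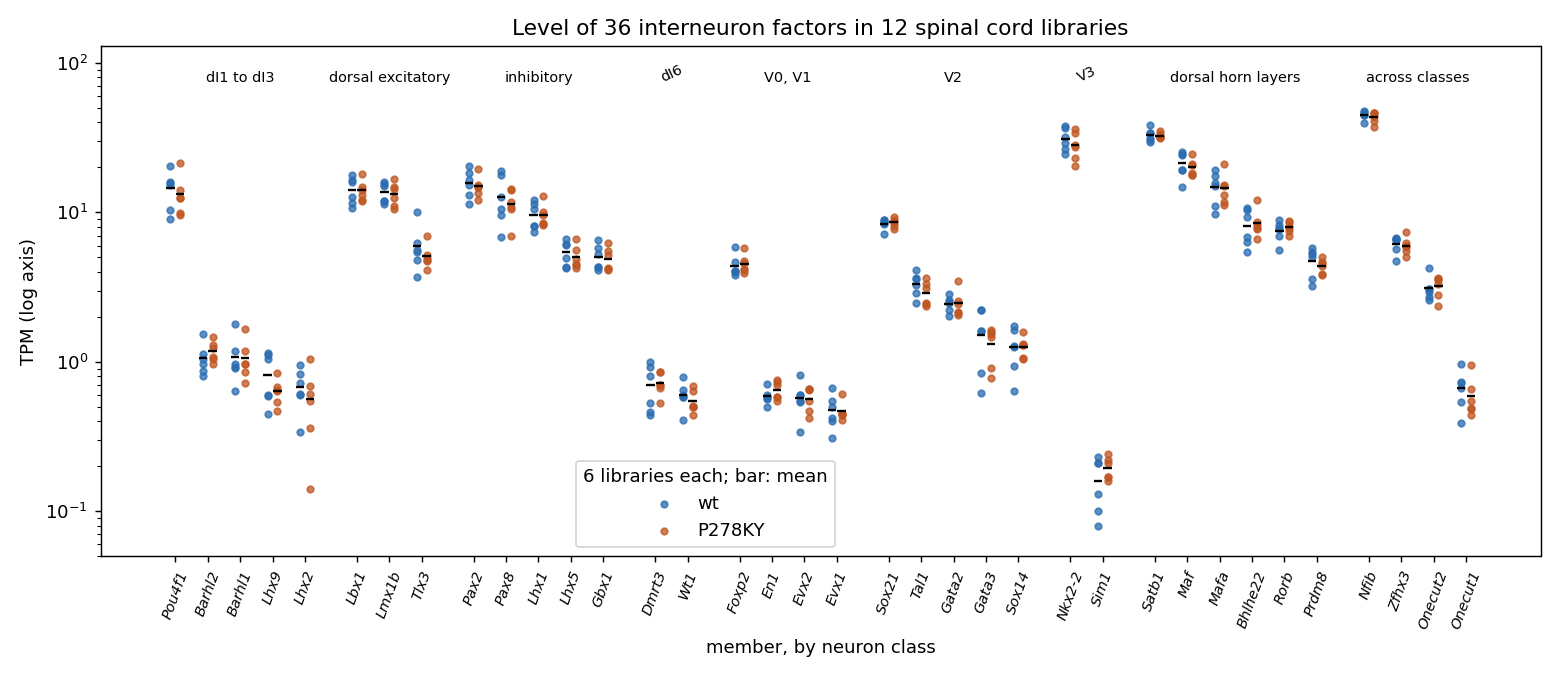
TPM of 36 members (log axis) in 6 wt (blue) and 6 P278KY (orange) libraries, grouped by neuron class, with black bars for the mean of each genotype. Nfib, Satb1 and Nkx2-2 stand highest, Sim1 stands lowest at a mean of 0.178 TPM, and the genotypes overlap for every member shown; Ptf1a is left out.

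Among the early dorsal factors, Pou4f1 stood far above the rest. Pou4f1 (chr14:104461676-104467999, minus strand), a POU factor of dI1 to dI3 and dI5 neurons that is also made by sensory ganglion neurons, averaged 13.9 ± 4.10 TPM (SD, n = 12). Its CPM values (count scaled by the library total and its TMM factor, and not by length) ran from 8.94 through a median of 12.98 to 18.3 in wt and from 8.39 through 11 to 16.6 in P278KY. The edgeR log2 fold change, P278KY over wt, was -0.16 ± 0.18 (SE). The ranges overlapped across most of their length.

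Barhl1 and Barhl2, homeodomain factors of dI1 relay neurons, averaged 1.07 and 1.12 TPM. Barhl2 ran from 1.19 through 1.35 to 2.03 CPM in wt and from 1.38 through 1.67 to 2.01 CPM in P278KY, with a log2 fold change of 0.21 ± 0.15. Barhl1 ran from 1.13 through 1.26 to 1.999 CPM in wt and from 1.197 through 1.46 to 2.30 CPM in P278KY, with a log2 fold change of 0.09 ± 0.22. Lhx9 and Lhx2, LIM factors that guide dI1 axons, were lower still, at 0.729 and 0.621 TPM. Lhx9 ran from 1.00 through 1.67 to 2.27 CPM in wt and from 1.23 through 1.43 to 1.76 CPM in P278KY, with a log2 fold change of -0.21 ± 0.19. Lhx2 ran from 0.282 through 0.618 to 1.27 CPM in wt and from 0.219 through 0.437 to 1.09 CPM in P278KY, with a log2 fold change of -0.24 ± 0.44. All 4 were near the lower end of what these depths measure, with a mean of 20.3 expected counts per library for Lhx2 and 51.5 for Lhx9.

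Lbx1, Lmx1b and Tlx3 set up the dorsal horn. Lbx1 (chr19:45232684-45235812, minus strand), which marks the dI4 to dI6 lineage, averaged 14.1 ± 2.51 TPM (SD, n = 12), and Lmx1b, which maintains excitatory dI5 neurons, 13.4 ± 2.14. Lbx1 ran from 14.9 through 18.0 to 22.4 CPM in wt and from 15.5 through 18.8 to 24.1 CPM in P278KY. The log2 fold change was 0.03 ± 0.13 for Lbx1 and -0.01 ± 0.12 for Lmx1b. Tlx3, which selects glutamate as the transmitter and is also made in sensory neurons, averaged 5.54 ± 1.66 TPM. It ran from 3.01 through 4.19 to 7.50 CPM in wt and from 3.32 through 3.86 to 5.51 CPM in P278KY, with a log2 fold change of -0.15 ± 0.19. The highest wt value of Tlx3 belonged to 1 library, described further on.

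The inhibitory program was dominated by a pair of paired-box factors. Pax2 (chr19:44756045-44837871, plus strand), which keeps dorsal neurons GABAergic, averaged 15.4 ± 2.82 TPM (SD, n = 12), and its relative Pax8 12.1 ± 3.75. Pax2 ran from 21.7 through 26.3 to 35.8 CPM in wt and from 22.9 through 26.2 to 34.9 CPM in P278KY, with a log2 fold change of -0.01 ± 0.14. Pax8 ran from 8.89 through 12.6 to 17.5 CPM in wt and from 9.34 through 11.4 to 16.9 CPM in P278KY, with a log2 fold change of -0.14 ± 0.18. The LIM factors Lhx1 (9.61 TPM) and Lhx5 (5.24 TPM), which sustain the inhibitory state, and Gbx1 (4.99 TPM), of dorsal horn inhibitory neurons, completed the group. Their log2 fold changes lay between -0.05 for Lhx5 and 0.02 for Lhx1.

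The dI6 factors were scarce. Dmrt3, which marks dI6 commissural neurons and bears on gait, averaged 0.707 ± 0.187 TPM (SD, n = 12), and Wt1, a zinc finger factor of a dI6 subset, 0.574 ± 0.109. Dmrt3 ran from 0.565 through 0.884 to 1.2 CPM in wt and from 0.692 through 0.914 to 1.13 CPM in P278KY, with a log2 fold change of 0.10 ± 0.24. Its P278KY values lay within the wt range.

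V0 and V1 neurons were represented by 4 factors. Foxp2, a forkhead factor of a V1 subset and other neurons, averaged 4.48 ± 0.685 TPM (SD, n = 12). En1, which defines V1 neurons including Renshaw cells, stood at 0.618 TPM, and the V0 factors Evx2 and Evx1, which specify commissural neurons, at 0.572 and 0.472 TPM. Foxp2 ran from 12.6 through 13.8 to 17.5 CPM in wt and from 14.3 through 15.4 to 19.01 CPM in P278KY, with a log2 fold change of 0.13 ± 0.09. En1 ran from 1.14 through 1.24 to 1.46 CPM in wt and from 1.24 through 1.42 to 1.72 CPM in P278KY, with a log2 fold change of 0.20 ± 0.14. Evx1 ran from 0.500 through 0.676 to 0.814 CPM in wt and from 0.634 through 0.725 to 0.929 CPM in P278KY, with a log2 fold change of 0.14 ± 0.18. All 4 fitted differences were positive with edgeR, between 0.04 and 0.20, but 2 of 4 on the log2(TPM + 1) scale and 3 of 4 without the 2 libraries of discordant sex marks, and none passed a test. Evx1, Foxp2 and Gata2 are on chromosome 6, as Gars is, Evx1 nearest to it. The mice are of a mixed background, so for these 3 an effect of a linked strain difference and of the allele cannot be told apart.

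The V2 group was led by Sox21, a SoxB transcriptional repressor, at 8.49 ± 0.591 TPM (SD, n = 12). It ran from 13.7 through 17.6 to 18.95 CPM in wt and from 15.5 through 17.8 to 20.01 CPM in P278KY, with a log2 fold change of 0.05 ± 0.08. Tal1, Gata2 and Gata3, which together drive the inhibitory V2b fate and are also active in blood and vessel cells, averaged 3.12, 2.45 and 1.42 TPM. Gata2 ran from 3.75 through 4.17 to 5.12 CPM in wt and from 3.74 through 4.24 to 6.09 CPM in P278KY, with a log2 fold change of 0.05 ± 0.12. Sox14, a relative of Sox21 that marks V2b neurons, stood at 1.26 TPM. Log2 fold changes of the group lay between -0.14 for Tal1 and 0.11 for Sox14.

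The V3 factors were at opposite ends of the scale. Nkx2-2 (chr2:147177546-147194243, minus strand), which patterns V3 progenitors and is also made by cells of the oligodendrocyte lineage, averaged 29.7 TPM, while Sim1, which stays on in V3 neurons, averaged 0.178 ± 0.0521 TPM. Nkx2-2 ran from 19.8 through 21.1 to 28.5 CPM in wt and from 16.5 through 22.5 to 27.5 CPM in P278KY, with a log2 fold change of -0.04 ± 0.14. Sim1 ran from 0.314 through 0.706 to 0.913 CPM in wt and from 0.681 through 0.819 to 1.06 CPM in P278KY. Its log2 fold change was 0.31 ± 0.27, at 24.3 expected counts per library on average. It was 0.18 without female wt 14, 0.10 without both libraries of discordant sex marks and 0.04 on the log2(TPM + 1) scale.

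Factors of dorsal horn layers were together the most abundant group, at a summed mean of 88.7 TPM. Satb1, a chromatin organiser, led it. Satb1 ran from 75.5 through 88.8 to 92.1 CPM in wt and from 85.6 through 89.95 to 96.3 CPM in P278KY, with a log2 fold change of 0.07 ± 0.05. Maf (20.6 TPM) and Mafa (14.7 TPM) are leucine zipper factors of deep dorsal horn and touch neurons, and Bhlhe22 (8.34 TPM) and Prdm8 (4.55 TPM) are a bHLH repressor and its partner in dorsal horn neurons. Rorb (7.77 TPM), a nuclear receptor of deep dorsal horn inhibitory neurons, ran from 27.7 through 38.5 to 42.5 CPM in wt and from 35.8 through 41.7 to 45.7 CPM in P278KY, with a log2 fold change of 0.12 ± 0.10. The other 4 members of the group had log2 fold changes between -0.05 for Prdm8 and 0.10 for Bhlhe22.

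Of the factors that cut across classes, Nfib, which marks late-born local neurons and glia, ran from 172 through 205 to 215 CPM in wt and from 175 through 204 to 215 CPM in P278KY. Its log2 fold change was 0.0002 ± 0.064. Zfhx3, a marker of long-range projecting neurons, stood at 6.07 TPM with a log2 fold change of 0.01 ± 0.09. Onecut2 and Onecut1, early-born neuron factors needed by Renshaw cells, stood at 3.15 and 0.633 TPM. Onecut2 ran from 20.4 through 22.3 to 34.1 CPM in wt and from 18.8 through 26.9 to 29.0 CPM in P278KY, with a log2 fold change of 0.09 ± 0.14. Onecut1 ran from 0.566 through 1.45 to 2.18 CPM in wt and from 1.02 through 1.18 to 2.08 CPM in P278KY, with a log2 fold change of -0.05 ± 0.25. Neither genotype stood apart for any of them.

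No member passed the genotype test. By edgeR's quasi-likelihood test over 12 libraries with labelled sex as a term, 0 of 36 members were called at an adjusted p under 0.05, where 1 of 17995 genes tested (0.00556%) was. At an unadjusted p under 0.05 the count was 0 of 36, beside 4.09% of all genes, and DESeq2 and limma-voom also called 0 members, with 0 under an unadjusted 0.05. Over all genes DESeq2 called 33, with 4.45% under an unadjusted 0.05, and limma-voom called 1, with 4.10%. The adjusted p was 0.9999 for each of the 36, and the smallest unadjusted edgeR p was 0.187 (Barhl2). Without the 2 libraries of discordant sex marks the edgeR count was again 0, at either threshold.

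The fitted differences were small and went both ways. On the count scale 22 of 36 members were higher in P278KY and 14 lower, beside 46.9% of all genes higher, and on the log2(TPM + 1) scale 12 of 36 were higher, beside 32.04% of all genes. Leaving out the 2 discordant libraries gave 13 of 36 higher, beside 49.4% of all genes. Leaving out single libraries gave from 15 (without female P278KY 4 or male wt 19, beside 47.1% and 47.4% of all genes) to 29 (without female wt 2, beside 47.04%). The median log2 fold change was 0.03, against -0.01 over all genes, and single members ran from -0.24 (Lhx2) to 0.31 (Sim1). By neuron class the median lay between -0.16 (dI1 to dI3) and 0.13 (V0 and V1, and V3). These ends moved: the dI1 to dI3 median was 0.04 without female wt 2 and -0.05 without female P278KY 7, and on the log2(TPM + 1) scale that of V0 and V1 was 0.02 and that of V3 -0.05. In 0 of 36 members did the CPM values of the genotypes fail to overlap, which 0.219% of all genes did.

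The intervals give the size of difference that the 12 libraries leave possible. The 95% interval of the log2 fold change lay within 2-fold in either direction for 35 of 36 members, beside 89.9% of all genes, and within 1.5-fold for 31, beside 76.8%. The exception at 2-fold was Lhx2, with an interval from -1.199 to 0.72. Intervals were narrowest for Satb1, from -0.05 to 0.18, and Nfib, from -0.14 to 0.14. For the dorsal horn factors Lbx1 and Pax2 they ran from -0.25 to 0.32 and from -0.31 to 0.28.

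**Figure D2:**
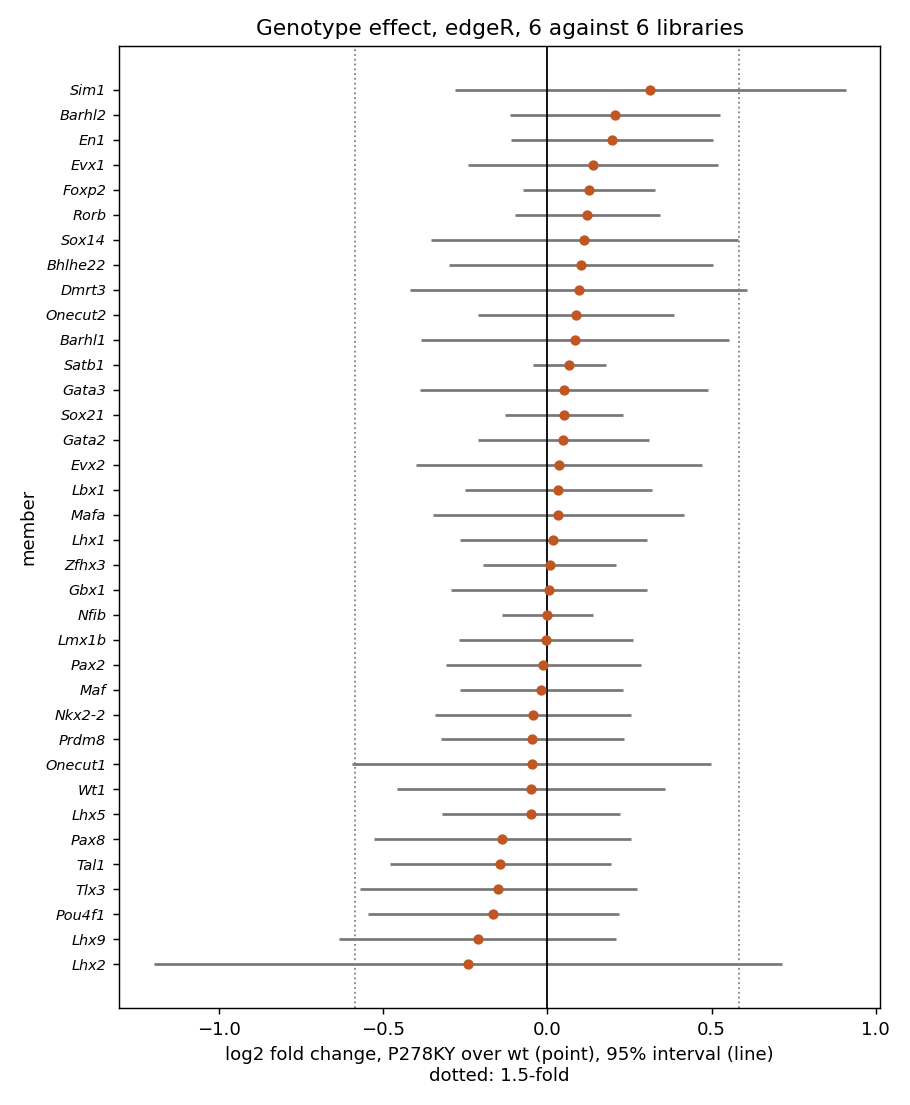
Genotype effect of 36 members as the edgeR log2 fold change, P278KY over wt (points), with its 95% interval (lines), over 6 against 6 libraries; dotted lines mark 1.5-fold. Every interval spans 0, from Lhx2 at -0.24 to Sim1 at 0.31, and that of Lhx2 is the widest.

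Within the labelled sexes the picture was the same in its counts of calls. In females 0 of 36 members were called by edgeR (0.0% of all genes) and 0 had an unadjusted p under 0.05, where 10.7% of all genes did. In males 0 were called (0.0%), and 1 had an unadjusted p under 0.05, where 4.91% of all genes did. That member was Barhl1, with a log2 fold change of 0.57 ± 0.24 in males (edgeR adjusted p = 0.942) and -0.40 ± 0.24 in females. For the genotype by sex interaction 0 were called (0.0%), and 1 had an unadjusted p under 0.05, where 10.9% of all genes did. This was again Barhl1, at -0.97 ± 0.34, females minus males (edgeR adjusted p = 0.334). Without male P278KY 13, which held its highest value, the difference in males was 0.33. DESeq2 called 0 members in each of these 3 comparisons, where it called 296 genes in females, 34 in males and 279 for the interaction. At an unadjusted p under 0.05 it had 0, 0 and 1 members, beside 11.4%, 5.04% and 11.45% of all genes. Without the 2 libraries of discordant sex marks edgeR again called 0 members, where it called 11, 4 and 5 of all genes. At an unadjusted p under 0.05 it then had 2, 1 and 1 members, beside 10.99%, 8.72% and 12.7% of all genes. Without female P278KY 4 it had 4 members in females, beside 12.6% of all genes, and 5 for the interaction, beside 14.3%, with 0 called. The fitted difference was positive for 18 of 36 members in females and 25 in males, with opposite signs for 23.

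Members varied more between libraries than most genes. The median coefficient of variation (CV, SD over mean of CPM in 12 libraries) was 17.9%, against 11.3% over all genes tested. Set beside genes of like count, within 1.5-fold of the member's mean count, 23 of 36 members lay above the median. Among members of good depth the excess differed. Maf had a CV of 15.2% where genes of like count had a median of 7.08%, and Pax2 one of 17.9% where they had 8.12%. Pou4f1, at 26.5% against 10.7%, Pax8, at 25.1% against 10.6%, and Bhlhe22, at 22.6% against 9.99%, lay at percentiles 91.4, 90.8 and 90.9 of like genes. Onecut2, at 18.0% against 8.34%, and Nkx2-2, at 17.1% against 8.48%, were close behind, while Prdm8, at 15.5% against 13.1%, was nearer to like genes. The largest CV of all belonged to Lhx2 (56.1%), Onecut1 (32.6%) and Sim1 (29.7%), each with a mean below 50 counts.

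Other members were steady. The smallest CV was that of Satb1 (5.89%), followed by Nfib (7.25%) and Sox21 (9.90%), each close to or below the median of like genes. En1 had a CV of 14.1%, where counting error alone gives 15.2%, and Evx1 one of 14.9%, where counting error gives 21.1%. Wt1 had one of 21.2%, where counting error gives 21.4%. For these genes no spread beyond counting was detectable at this depth.

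**Figure D3:**
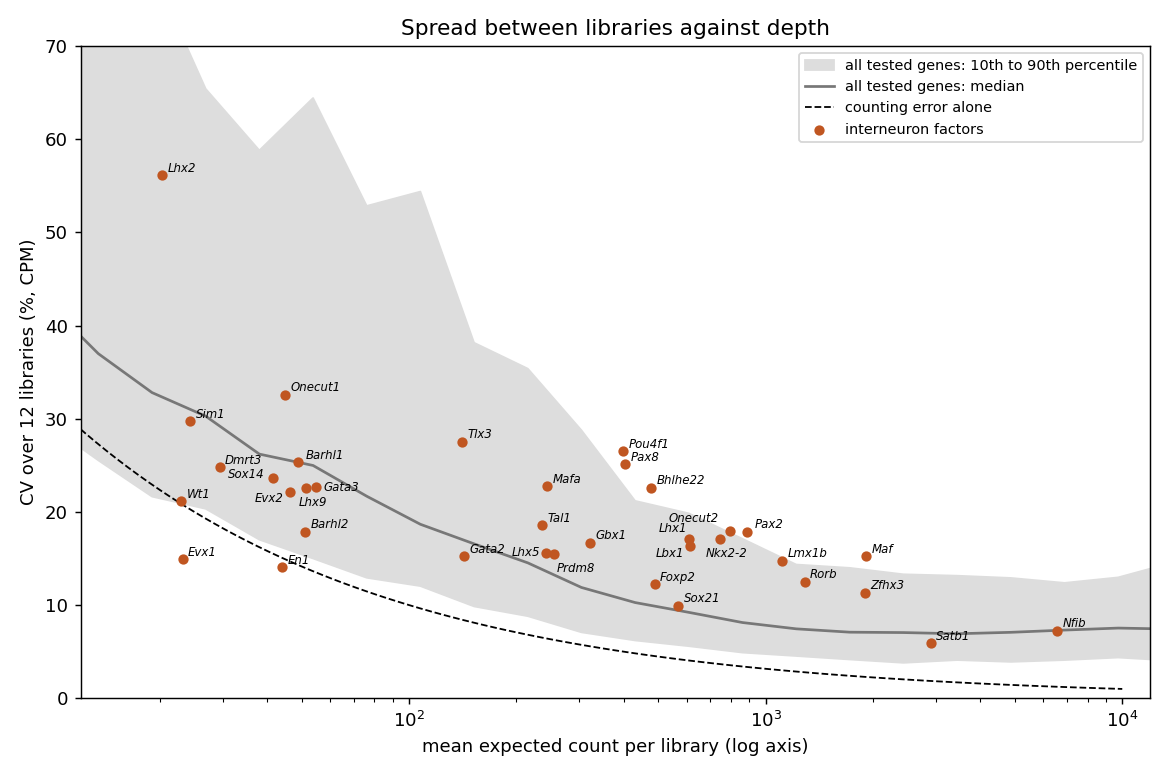
CV over 12 libraries (percent, CPM) against mean expected count per library (log axis) for 36 members (orange), with the median (line) and the 10th to 90th percentile (grey) of all tested genes and the CV from counting error alone (dashed). Pou4f1, Pax8, Bhlhe22 and Maf lie above the grey band, Satb1 and Nfib near the median line, and Evx1 and En1 at or below the dashed line.

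Related factors kept a fixed order in most pairs. In 6 of 9 pairs of related genes the same gene was higher, per length in TPM, in 12 of 12 libraries. Sox21 exceeded Sox14 by a median ratio of 6.69 (range 4.11 to 13.5) and Onecut2 exceeded Onecut1 by 4.82 (2.67 to 10.9). Lhx1 exceeded Lhx5 by 1.85 (1.58 to 2.06), Gata2 exceeded Gata3 by 1.67 (1.11 to 3.61), Maf exceeded Mafa by 1.47 (1.16 to 1.88) and Pax2 exceeded Pax8 by 1.303 (1.03 to 2.13). The ratio of the Lhx1 pair had the narrowest range. No order held for Barhl2 over Barhl1 (7 of 12 libraries), Lhx9 over Lhx2 (9 of 12) or Evx2 over Evx1 (9 of 12).

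Many members varied together across mice, both dorsal horn factors and some of other classes. Lbx1, chosen as the reference after its values were seen, ranged 1.62-fold in CPM from its lowest library, male wt 19, to its highest, female P278KY 4. Over 12 libraries the log2 CPM of 35 other members and of 19 lists of marker genes was correlated with Lbx1, 54 relations in all, with permutation p-values from 100000 draws and Benjamini-Hochberg adjustment. Of the 35 members, 15 passed an adjusted p of 0.05 for Pearson's r, 14 positive and 1 negative, and all 15 had the same sign within wt and within P278KY. The median r of the members was 0.59, against -0.03 over 17842 genes. An r above 0.7 was found for 12 of 35 members and for 7.40% of all genes.

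Pax2 and Lmx1b had the highest r. Pax2 had r = 0.92 (permutation p = 7e-05, adjusted 0.000945) and Spearman's rho = 0.92 (permutation p = 7e-05, adjusted 0.00189). Lmx1b had r = 0.92 (permutation p = 0.00028, adjusted 0.00216) and rho = 0.83 (permutation p = 0.00157, adjusted 0.00942). Without the 2 libraries farthest from the median of Lbx1 (female P278KY 4 and male wt 19), r was 0.87 for Pax2 and 0.89 for Lmx1b. Within wt r was 0.92 for Pax2 and 0.97 for Lmx1b, and within P278KY 0.93 and 0.94. Lhx1 (r = 0.90), Mafa (0.88), Pax8 (0.86), Gbx1 (0.85), Bhlhe22 (0.85) and Lhx5 (0.84) followed, with r between 0.76 and 0.83 without those 2 libraries. Sox14, Lhx2, Prdm8, Dmrt3, Onecut1 and Satb1 also passed, with r between 0.65 and 0.77. For rho, Dmrt3 (adjusted 0.0968) and Onecut1 (adjusted 0.0619) missed the threshold. The count of members that passed was lowest, at 10 of 35, without female wt 2, and highest, at 18, without female P278KY 7 or male P278KY 5.

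Several ventral factors and both Tlx3 and Nfib did not share this pattern over 12 libraries, and not every dorsal horn layer factor passed. Rorb and Maf each had r = 0.51 (adjusted permutation p = 0.139 and 0.147). En1 had r = 0.02, Nfib 0.06, Tlx3 0.06 and Onecut2 -0.24, and Evx1, Sox21 and Tal1 had r of -0.47, -0.51 and -0.64, none of which passed the adjusted threshold. Tal1 was at the edge, with an adjusted permutation p of 0.0562 for r and 0.0464 for rho. Pou4f1 had r = 0.63 over 12 libraries and 0.94 without female wt 14. Without that library r was 0.44 for Tlx3 and -0.15 for Nfib, so the low r of Tlx3 depended on it.

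**Figure D4:**
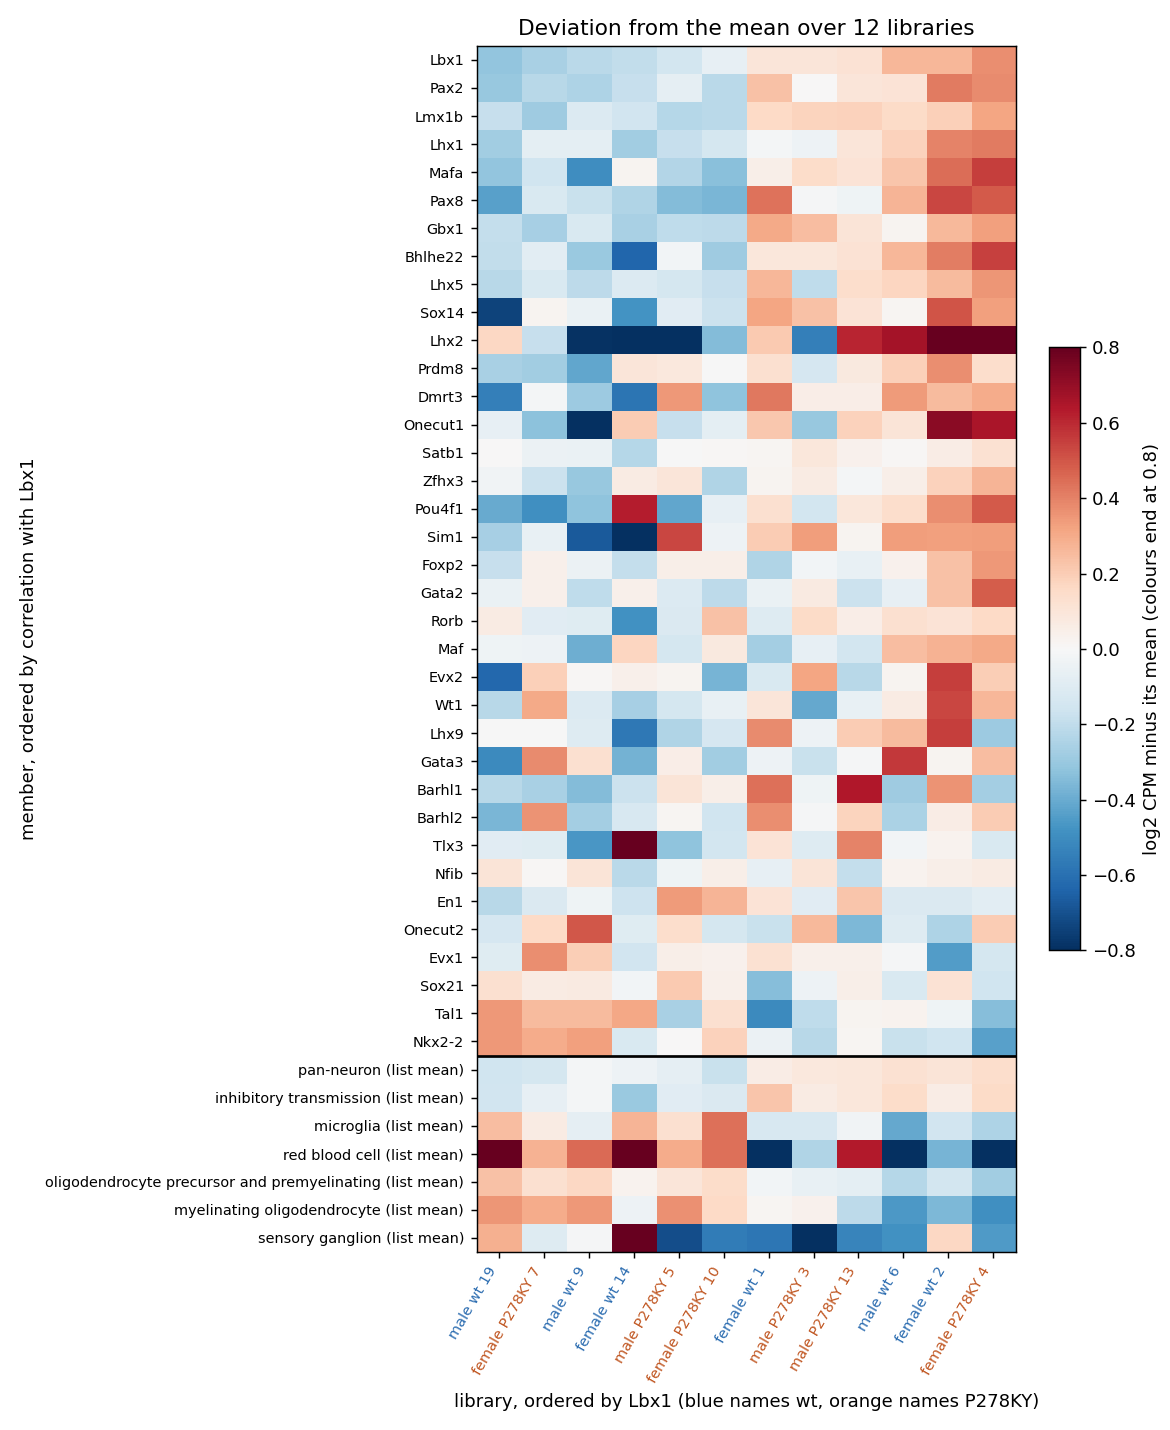
Deviation of log2 CPM from its mean over 12 libraries (colour, red above and blue below, ending at 0.8) for 36 members and 7 lists of marker genes, with libraries ordered by Lbx1 from male wt 19 to female P278KY 4. Rows of many dorsal horn factors and of some other members turn from blue to red across the order. Nkx2-2 and the oligodendrocyte lists turn the other way, and wt and P278KY names are mixed along the axis.

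Nkx2-2 ran against Lbx1. Its r with Lbx1 was -0.83 (permutation p = 0.00105, adjusted 0.00515) and its rho -0.82 (permutation p = 0.0019, adjusted 0.0103), with r = -0.71 without the 2 farthest libraries, -0.79 within wt and -0.89 within P278KY. Gene lists of the oligodendrocyte lineage did the same. The mean log2 CPM of 8 genes of oligodendrocyte precursors and premyelinating cells had r = -0.94 with Lbx1 (permutation p = 2e-05, adjusted 0.000945; rho = -0.93), and that of 6 myelin genes r = -0.91 (permutation p = 9e-05, adjusted 0.000972; rho = -0.85). Each of the 8 and each of the 6 genes had a negative r. Without the 2 farthest libraries these were -0.90 and -0.86. Pan-neuronal genes had r = 0.87, with 6 of 6 genes positive, the 8 genes of inhibitory transmission 0.78, with 8 of 8 positive, and the other interneuron factors 0.91, with 23 of 26 positive. Not every neuronal list did so. Dorsal horn peptides and receptors had r = 0.49 (adjusted permutation p = 0.155), with 13 of 16 genes positive. Excitatory transmission had r = -0.11 as a list mean, and 0.05 without female wt 14, though 5 of 6 genes were positive. Calcium-binding and Renshaw genes had r = -0.17, with 2 of 4 positive, and motor neuron genes -0.50, with 6 of 6 negative. None of these lists passed. Of the other cell types, red blood cell genes (-0.76, adjusted permutation p = 0.0166), microglial genes (-0.73, adjusted 0.0227) and ependymal genes (0.73, adjusted 0.0227) passed for r, and for rho microglial genes did (adjusted 0.03), red blood cell (0.0723) and ependymal genes (0.0619) did not.

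**Figure D5:**
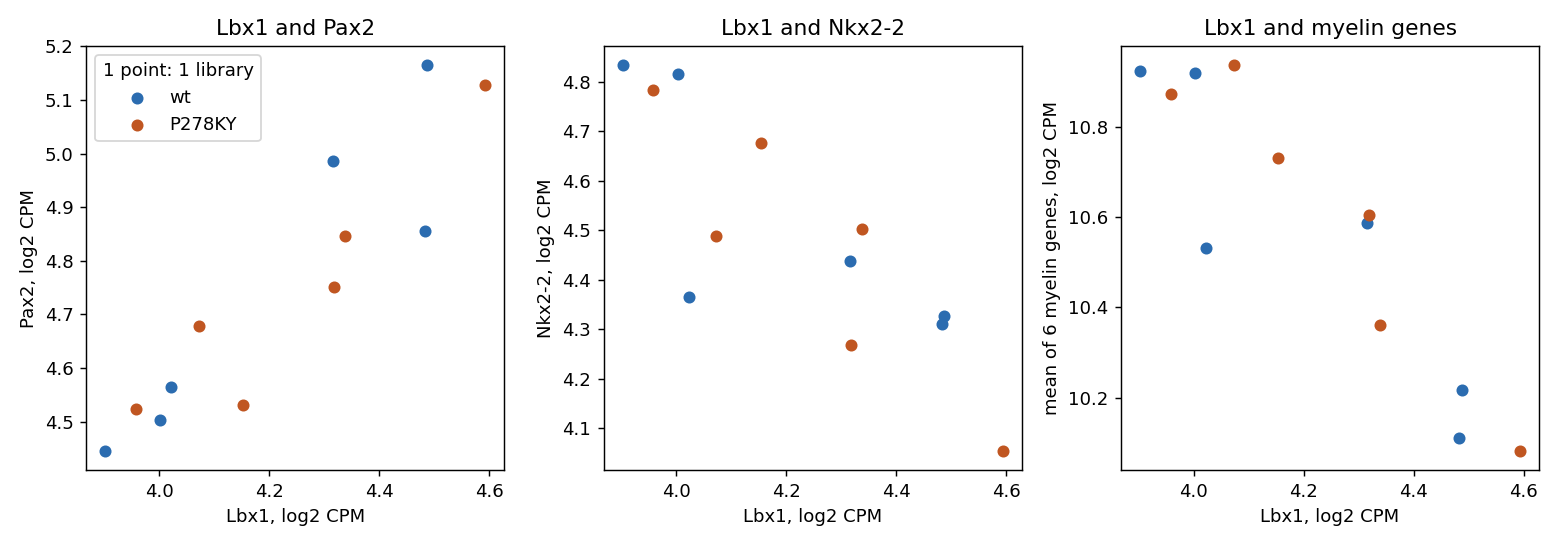
Log2 CPM of Lbx1 (horizontal) against that of Pax2, of Nkx2-2 and of the mean of 6 myelin genes (vertical) in 12 libraries, 1 point each, blue for wt and orange for P278KY. Pax2 climbs with Lbx1 (r = 0.92), Nkx2-2 and the myelin mean descend (r = -0.83 and -0.91), and the genotypes are mixed along each trend.

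Nkx2-2 and Tal1 followed marker lists of other cell types. Over 4 relations chosen after the values were seen, Nkx2-2 had r = 0.90 with the precursor list (permutation p = 6e-05, adjusted 0.00024; rho = 0.88, permutation p = 0.00035) and r = 0.81 with the myelin list (permutation p = 0.00155, adjusted 0.0031; rho = 0.75). Tal1, which is also active in red blood cell precursors, had r = 0.73 with the red blood cell list (permutation p = 0.00823, adjusted 0.011; rho = 0.75) and r = 0.44 with the endothelial list (permutation p = 0.149, adjusted 0.149; rho = 0.48). Without the 2 libraries farthest from the median of each list, r was 0.81, 0.72, 0.78 and 0.64. The 6 myelin genes summed to between 12360 and 20820 TPM in wt and between 11850 and 20850 TPM in P278KY, the 8 precursor genes to between 785 and 1009 TPM and between 719 and 1006 TPM, and the 7 red blood cell genes to between 3839 and 17510 TPM and between 7321 and 15260 TPM. CPM is a relative scale, on which members and lists of 1 library share its scaling. The part of cell make-up, dissection or blood in these relations was not tested.

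Tlx3 and Pou4f1 need 1 library set apart. All 12 genes of a sensory ganglion list were highest in female wt 14, the library of discordant sex marks, where the list summed to 324 TPM. In the other wt libraries it summed to between 51.5 and 79.0 TPM, and in P278KY to between 44.5 and 66.2 TPM. Scn10a, a sodium channel of nociceptors, stood at 27.8 TPM there and at no more than 0.64 TPM elsewhere, and Avil, an actin regulator of sensory neurons, at 44.9 TPM and at no more than 1.47 TPM. Tlx3 was also highest in that library, at 7.50 CPM with the next wt library at 4.51. Without it the log2 fold change of Tlx3 moved from -0.15 to 0.03 ± 0.15 over both sexes and from -0.50 ± 0.24 to -0.19 ± 0.21 in females, and that of Pou4f1 from -0.16 to -0.08 ± 0.18. The part of ganglion RNA in these values was not tested beyond that omission.

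The balance of an inhibitory and an excitatory factor was compared within libraries, a choice made after values were seen. The ratio of Pax2 to Lmx1b in TPM ran from 1.00 through a median of 1.12 to 1.36 in wt and from 0.981 through 1.11 to 1.41 in P278KY. The log2 difference was -0.02 (exact two-sided permutation p = 0.866 over 924 splits, adjusted 0.866 over 2 ratios). For the transmitter genes Slc32a1, the vesicular transporter of GABA and glycine, and Slc17a6, that of glutamate, the ratio ran from 0.740 through 0.846 to 0.912 in wt and from 0.753 through 0.815 to 0.941 in P278KY. Its log2 difference was -0.02 (exact two-sided permutation p = 0.742, adjusted 0.866). Neither difference exceeded the spread between mice.

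Other spinal interneuron factors gave the same count of calls. Of 28 listed, Ebf1 was on 2 rows and was left out, 26 were tested, and edgeR called 0. In P278KY 11 were higher and 15 lower, beside 46.9% of all genes higher, with a median log2 fold change of -0.02. An unadjusted p under 0.05 was found for 1 gene, beside 4.09% of all genes. This was Lhx4, a LIM factor of V2 and motor neurons, at -0.28 ± 0.09 (edgeR adjusted p = 0.9999). Isl1, a LIM factor of dI3, motor and sensory neurons that is also on the ganglion list, followed at -0.47 ± 0.28. Inhibitory transmission (8 genes, median 0.01), excitatory transmission (6 genes, -0.02) and dorsal horn peptides and receptors (16 of 18 tested, -0.02) had 0 genes called and 0 with an unadjusted p under 0.05. Among the genes with the smallest unadjusted p-values were Glrb (0.12 ± 0.07) of the inhibitory genes, Slc17a7 (-1.58 ± 0.74) and Gria2 (0.10 ± 0.10) of the excitatory genes, and Sst (-0.17 ± 0.11) and Nmu (0.16 ± 0.13) of the peptides. Of 6 motor neuron genes 0 were called and 1 had an unadjusted p under 0.05, beside 4.09% of all genes. That gene was Isl2, at -1.50 ± 0.61, followed by Mnx1 at -0.30 ± 0.15. The motor neuron list summed to 314.5 TPM in female wt 14, against 118.8 to 180.6 TPM in the other wt libraries and 115 to 158 TPM in P278KY. Without that library the log2 fold change was -0.47 ± 0.20 for Isl2, -0.26 ± 0.17 for Mnx1, -0.12 ± 0.17 for Isl1, -0.32 ± 0.09 for Lhx4, -0.48 ± 0.51 for Slc17a7, 0.05 ± 0.10 for Gria2 and 0.07 ± 0.06 for Glrb, with 0 called. Tac3 and Slc18a3 were not found under those names.

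Counts of some members may hold RNA of an overlapping gene. In GENCODE M21 (GRCm38), 17 of the 37 members overlap another gene, 15 of them a gene on the opposite strand, and whether counting used strand is not given in the sources used here. Set against the member, Gm27199 was highest, at 5.33 TPM over Lhx5 at 5.24 TPM, though it shares only 69 bases with Lhx5. Evx1os was also high, at 0.344 TPM over Evx1 at 0.472 TPM, with 1335 shared bases. Overlap is of whole gene spans, introns included, so a partner's TPM does not give its share of a member's count. The highest partners on the opposite strand were Gm15655 over Maf at 7.79 TPM, Gm11266 over Nfib at 5.41 TPM, Gm27199 over Lhx5 at 5.33 TPM, 6430503K07Rik over Nkx2-2 at 1.91 TPM, Gm4675 over Sox21 at 0.952 TPM and Nkx2-2os over Nkx2-2 at 0.937 TPM.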

How the data were processed

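RNA of whole spinal cord was measured in 12 mice by poly(A)-selected, paired-end RNA-seq. The authors deposited, for each library, RSEM's expected counts, TPM and FPKM per gene, per the file headers. The submitters' processing notes list RSEM 1.2.12 and Bowtie2 2.2.0. The genome build is not given in the sources used here, nor are the annotation and the use of strand. Places of genes are from GENCODE M21 (GRCm38) and promoters from RefSeq (GRCm38.p6), so they may differ from the authors' gene models.

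Expected counts were rounded, filtered with filterByExpr over the 4 groups (17995 of 38924 genes kept), scaled by TMM and fitted with edgeR 4.0.16 (R 4.3.3) by the robust quasi-likelihood test, with terms for genotype and labelled sex. Differences within sexes and the interaction came from group means. P-values were adjusted by Benjamini-Hochberg over all genes tested, with a threshold of 0.05. They set the fitted difference against the spread between separate mice. Scripts were tested on simulated data. CPM is the deposited expected count scaled by the total of the genes kept and the TMM factor. Correlations used log2 CPM with a prior count of 2. Totals of 27713981 to 43219891 set the counting error, which is given beside low members. Intervals are 95%.

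Alternatives were RLE factors, library totals, no filter or a stricter one (CPM above 1 in 6 libraries), DESeq2 1.42.0, limma 3.58.1 (voom, and trend on log2(TPM + 1) and log2(TPM + 0.1)), no sex term, deposited FPKM for the order of related genes, and omission of each library or of the 2 with discordant sex marks.

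Members given in full were the 8 with the smallest genotype p, any called, the highest of each class, those with a library apart by Dixon's ratio, and the 3 largest and 3 smallest CVs. Of the neuronal lists the 2 genes with the smallest p are named, except where a gene is not reported here, and lists of other cell types are given by counts and sums. The members and lists were chosen with earlier results of these data known. The correlations, the ratio of Pax2 to Lmx1b and the promoters shown were chosen after values were seen.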

Additional observations from a re-analysis of the deposited data

Results flagged for a closer look

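In 8 of 72 sets of 6 libraries (36 members in each genotype) the highest library stood apart from the other 5 by Dixon's ratio, above its 95% critical value. Chance gives such a gap in about 1 in 20 sets of independent, normally distributed values. CPM was used without logs and many members varied together, so the 8 of 72 cannot be judged against that rate.

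Among wt libraries, Tlx3 reached 7.50 CPM in female wt 14, with the next at 4.51, and Onecut2 reached 34.1 CPM in male wt 9, with the next at 22.7. Among P278KY libraries, female P278KY 4 held 3 of the values: Pax8 at 16.9 CPM (next 11.9), Foxp2 at 19.01 CPM (next 15.4) and Gata2 at 6.09 CPM (next 4.57). Male P278KY 13 held the highest Tlx3, at 5.51 CPM (next 3.90), and the highest Barhl1, at 2.30 CPM (next 1.57). Evx1 was highest in female P278KY 7, at 0.929 CPM (next 0.730). The cause of these gaps was not tested.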

How the results depend on the processing

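No member was called for genotype, within a sex or for the interaction under any alternative run, and the smallest adjusted p for genotype among members given in full was 0.823 (Tlx3, without male P278KY 13). Within sexes and for the interaction, of Barhl1, Tlx3, Pou4f1 and Evx1, it was 0.2441 (interaction for Barhl1, without both libraries of discordant sex marks). Over all genes the genotype calls ranged from 0 to 33, those in females from 0 to 296, in males from 0 to 34 and for the interaction from 0 to 279, each highest with DESeq2; the cause was not tested. The median of the members in females, -0.005, ranged from -0.2141 (without female P278KY 4) to 0.0803 when single libraries were left out.

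Signs near 0 turned. On log2(TPM + 1) the fold change was -0.009 for Satb1, -0.0019 for Lbx1, -0.0488 for Nfib, -0.0016 for Barhl1 and -0.0035 for Evx1, and on log2(TPM + 0.1) -0.0092 for Satb1, -0.0013 for Lbx1, -0.0499 for Nfib and -0.002 for Gata2. Nfib was also at -0.0136 with library totals, -0.0012 with no filter and -0.0013 with no sex term. Without both libraries of discordant sex marks it was -0.0797 for Lbx1, -0.1345 for Dmrt3, -0.0268 for Nfib, -0.0095 for Barhl1 and 0.0242 for Tlx3. Leaving out single libraries gave -0.048 to 0.1144 for Lbx1, -0.0929 to 0.066 for Pax2, -0.0118 to 0.2113 for Dmrt3, -0.0033 to 0.0952 for Sox21, -0.1292 to 0.0213 for Nkx2-2, -0.0397 to 0.0443 for Nfib, -0.522 to 0.0361 for Lhx2, -0.1993 to 0.0671 for Onecut1, -0.0735 to 0.1882 for Barhl1, -0.2918 to 0.0265 for Tlx3 and -0.0479 to 0.1155 for Gata2. The cause was not tested.

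No paired analysis was possible because mouse numbers do not repeat across groups. Depth limits Lhx2, Wt1, Evx1 and Sim1, with 20 to 24 counts per library, and Ptf1a, with fewer than 1.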
